A study of Drosophila melanogaster with 30 samples.

Results

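Tumor neuroblasts with brat RNAi were described by both histone marks measured in them, gene by gene. They make up 4 of the 30 samples of the series, 2 ChIP-seq libraries for H3K4me3 and 2 for H3K27me3, and were chosen by their sample labels alone. The cells came from the brains of wandering third-instar (L3) larvae of Drosophila melanogaster and were labelled tumor neuroblasts. Chromatin was treated with micrococcal nuclease and precipitated with antibody from Millipore for H3K4me3 or from Active Motif for H3K27me3. The driver of the RNAi, the strain and the number of animals are not given in the labels. All 4 libraries carried the same brat RNAi, and no other group of the series was used. Nothing in the labels states that the replicates came from separate animals, so the spread between them may be technical.

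Neuroblasts are the stem cells of the fly brain. Each division normally leaves a neuroblast and a daughter that goes on to make neurons or glia, and brat encodes a translational repressor that is passed to that daughter and blocks its return to a stem cell fate. When brat is lost in type II lineages, daughters revert and neuroblast-like cells accumulate as a tumor. H3K4me3, trimethylation of lysine 4 on histone H3, is found at the starts of active genes. H3K27me3 is placed by Polycomb repressive complex 2 and spreads over genes held silent, classically the Hox genes that assign identities along the body axis.

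Each gene had a read count in a short window of fixed length at its start for H3K4me3 and over its whole gene model for H3K27me3. Counts were turned into CPM, the counts scaled to a common library total, and for H3K27me3 into CPM per kb of gene model. If reads were spread evenly, each of the 14284 genes would hold 70.0 CPM of H3K4me3 and each kb of gene model 11.2 CPM of H3K27me3. A gene was called H3K4me3-marked at 0.5 times this even share (35.0 CPM) and H3K27me3-marked at 2 times the even share (22.4 CPM per kb), in both libraries. "Unmarked" therefore means below these levels and not that the mark was absent. The H3K4me3 libraries held 10707815 and 2461222 reads and the H3K27me3 libraries 16868854 and 19045164. The level for H3K4me3 stood at 86.2 reads in the smallest library, and the level for H3K27me3 at 377.1 reads per kb. Libraries of a mark ranked genes alike, with a Spearman correlation across the 14284 genes of 0.87 for H3K4me3 and 0.81 for H3K27me3. Replicate 2 had the higher median in both marks. Its median gene held 0.406 times the even share of H3K4me3 against 0.144 times in replicate 1, and 0.729 times the even share of H3K27me3 against 0.628 times. For H3K27me3 it also had the narrower range. Its 5th to 95th percentiles ran from 0.303 to 1.86 times the even share, against 0.177 to 2.10 times in replicate 1.

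H3K4me3 marked 5898 genes, 41.3% of the total, and H3K27me3 marked 415 genes, 2.91%. The marks rarely met. H3K4me3 alone was carried by 5764 genes (40.4%), H3K27me3 alone by 260 genes (1.82%), both by 126 genes (0.882%) and neither by 6964 genes (48.8%). On the remaining 1170 genes (8.19%) the libraries of at least 1 mark fell on different sides of a level. Histone repeat, snmRNA:430 and Stellate copies accounted for 120 of the 126 genes with both marks, which left 6 others. Outside these repeats, 6 of 287 H3K27me3-marked genes (2.09%) also had H3K4me3 in both libraries, whereas 40.8% of all genes did. With repeats included, 29 further H3K27me3-marked genes passed the H3K4me3 level in 1 of 2 libraries. Since a library averages over many cells, fewer cells with a mark and less mark per cell cannot be told apart, and marks found at 1 gene need not lie in the same cell. H3K27me3-marked genes numbered 800 in replicate 1 and 551 in replicate 2 when each library was read by itself. With H3K27me3 replicate 2 left out, 4.38% of genes were H3K27me3-only, and 2.68% with replicate 1 left out.

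**Figure D1:**
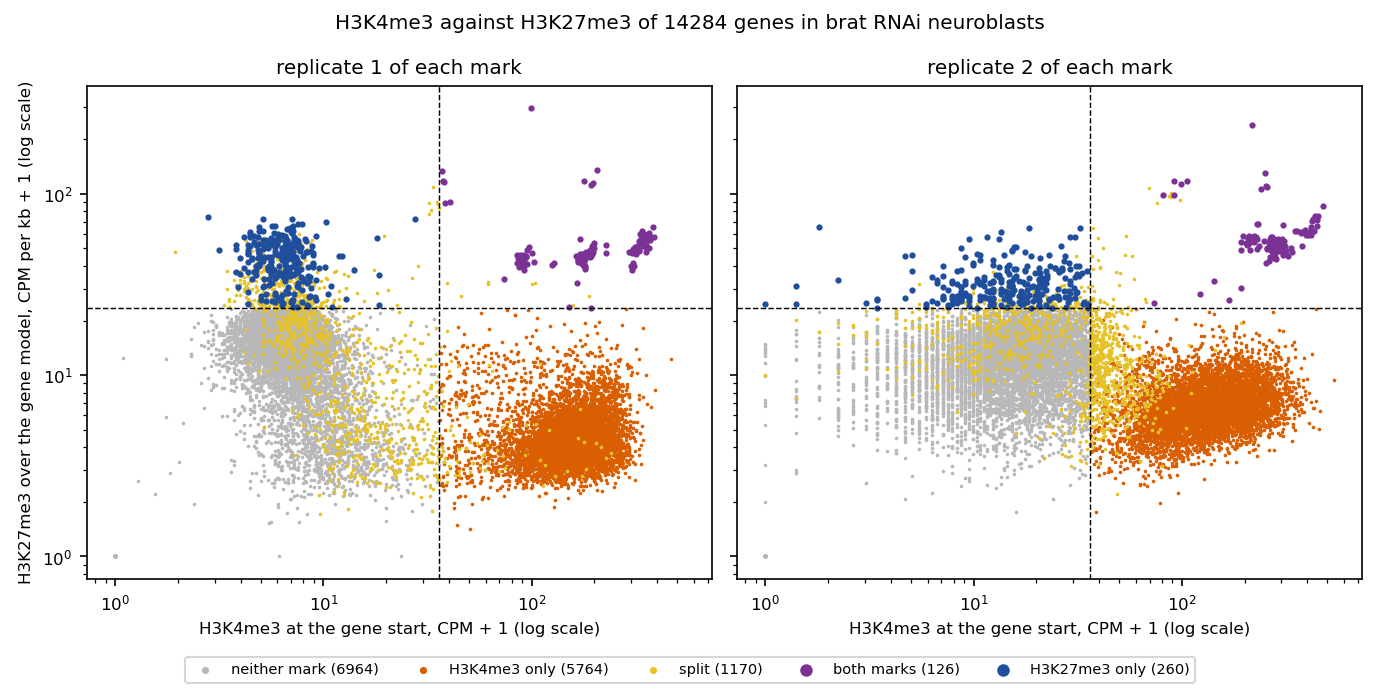
H3K4me3 at the gene start (CPM + 1, log scale) against H3K27me3 over the gene model (CPM per kb + 1, log scale), 1 point per gene and 1 panel per replicate number. Dashed lines mark the levels of 35.0 CPM and 22.4 CPM per kb, and colors the 5 classes. The 5764 H3K4me3-only genes form 1 cloud at the lower right, the 260 H3K27me3-only genes sit at the upper left, and the 126 genes with both marks form small tight groups at the upper right.

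The separation was wide in level as well as in count. H3K4me3-only genes had median H3K4me3 of 155.6 CPM in replicate 1 and 130.8 CPM in replicate 2, while the H3K27me3-only genes had 5.51 and 14.2 CPM. Genes with neither mark stood at 5.98 and 13.8 CPM, so the starts of H3K27me3-only genes were about as poor in H3K4me3 as those of other unmarked genes. The order was turned for H3K27me3. Its median was 42.4 and 29.1 CPM per kb in the H3K27me3-only genes, 12.8 and 10.95 CPM per kb in genes with neither mark, and 3.39 and 5.61 CPM per kb in H3K4me3-only genes.

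Genes with neither mark thus had H3K27me3 counts near the even share. Below the H3K4me3 level in both libraries were 7713 genes, which include the 260 H3K27me3-only genes and 489 genes split on H3K27me3. Of the 7713, 57.2% had a mean H3K27me3 of 1 to 2 times the even share, and 5.30% had 2 to 4 times. Of the 5898 H3K4me3-marked genes, 72.7% had less than 0.5 times the even share. Outside the Polycomb-marked genes, H3K27me3 counts were thus mostly near the even share over unmarked genes and lower over H3K4me3-marked genes. Each gene model had 1 summed count, so the spread of the signal along a gene was not measured. No input was subtracted from the counts, so how much of this signal would be seen in input chromatin was not tested. Across all genes the marks had a Spearman correlation of -0.54, which was -0.61 within replicate 1 and -0.40 within replicate 2. Within the H3K4me3-marked genes it was 0.24, and within the 7713 genes below the H3K4me3 level -0.02. These groups were cut by H3K4me3 itself, which narrows its range inside each, and 673 genes split on H3K4me3 are in neither. The values within groups therefore cannot show where the inverse relation lay. Genes share libraries and depth and are not independent points.

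**Figure D2:**
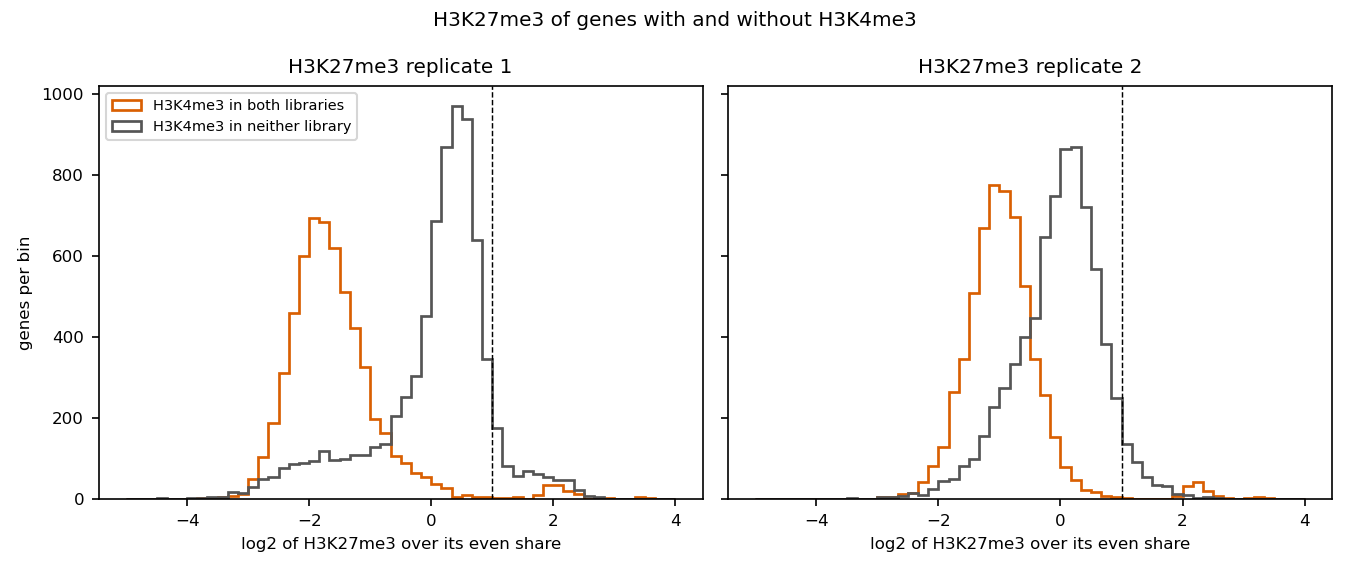
Number of genes by H3K27me3 level (log2 of CPM per kb over its even share) in each H3K27me3 library, for genes with H3K4me3 in both libraries (orange, 5898 genes) and in neither (grey, 7713 genes). The dashed line is the level of 2 times the even share. The orange genes peak to the left of the grey ones in both libraries, further apart in replicate 1, and the small orange peak right of the line holds the histone repeat genes.

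The strongest Polycomb-marked genes were ranked by mean H3K27me3 among marked genes with a gene model of at least 1000 bases. The 20 highest lay between 46.5 and 68.9 CPM per kb, and 19 of them were H3K27me3-only. Their H3K4me3 reached at most 26.6 CPM in replicate 1 and 36.2 CPM in replicate 2. The first was kl-2, a Y-linked axonemal dynein gene needed for sperm motility, on YHet (chrYHet:81209-148249, dm3). It held 73.2 and 64.6 CPM per kb, or 68.9 ± 6.08 (SD, n = 2), with H3K4me3 of 1.77 and 0.813 CPM. The next was fd102C on chromosome 4 (chr4:857610-865132), which encodes a forkhead domain transcription factor. Its H3K27me3 was 71.6 and 63.8 CPM per kb, or 67.7 ± 5.53 (SD, n = 2), and its H3K4me3 was 26.6 and 17.5 CPM. In both genes the libraries differed by far less than their distance from the level. Libraries can share errors of mapping and copy number in heterochromatic sequence, and no input was used. Their agreement therefore does not secure the level of kl-2.

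Other leading genes had varied roles. fzo, which encodes the mitochondrial fusion factor of spermatids, had 65.7 and 47.6 CPM per kb. CG42262 on X had 71.6 and 43.1 CPM per kb. Glut3, a glucose transporter gene inside the bithorax complex, had 71.2 in replicate 1 but 31.1 CPM per kb in replicate 2. Its mean of 51.1 ± 28.3 (SD, n = 2) therefore carried the widest error of these genes, although both libraries stayed above the level. Actn3 beside the bithorax complex, an alpha-actinin family gene, had 57.8 and 49.4 CPM per kb. zen2, a homeobox gene of the Antennapedia complex, had 61.7 and 38.9, and lbe, a ladybird homeobox gene, had 59.1 and 39.3 CPM per kb. Long non-coding RNAs were also among them, with CR43762 at 60.8 and 36.7 and CR43617 at 57.2 and 37.8 CPM per kb. The remaining genes of the 20 were CG30429, CG15485, CG11630, laf, CG33680, CG42850, CG11023, CG1979, CG43252 and CG6475. CG6475 was the one that was not H3K27me3-only, since its H3K4me3 passed the level in replicate 2 (36.2 CPM) and not in replicate 1 (5.14 CPM). Of the 20 genes, 14 lay in runs of neighboring H3K27me3-marked genes.

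**Figure D3:**
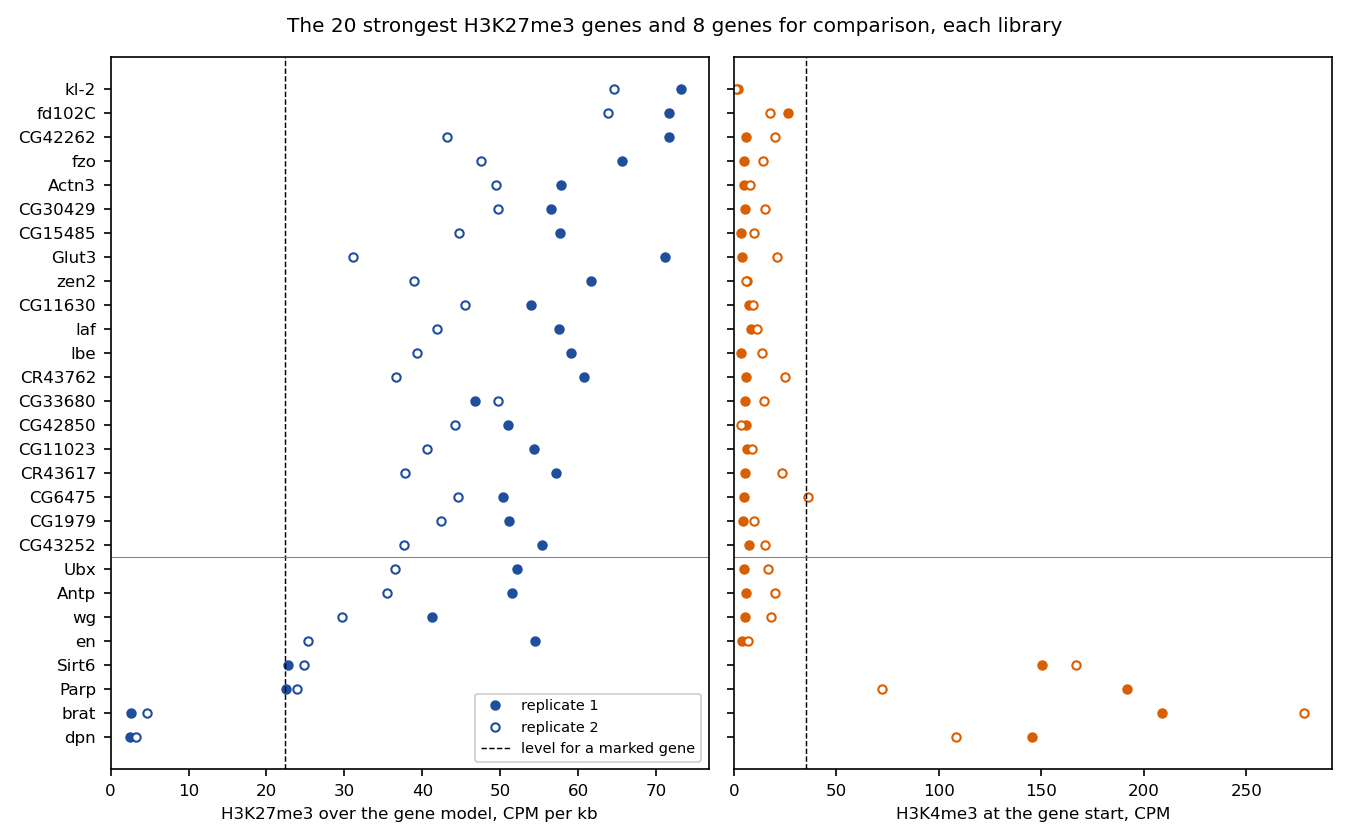
H3K27me3 (left, CPM per kb) and H3K4me3 (right, CPM) in each library for the 20 strongest H3K27me3 genes of at least 1000 bases and, below the line, 8 genes for comparison. Filled points are replicate 1, open points replicate 2, and dashed lines the levels of 22.4 CPM per kb and 35.0 CPM. The 20 genes lie above the H3K27me3 level in both libraries and, except CG6475 in replicate 2, below the H3K4me3 level. brat and dpn show the opposite pattern.

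The rank of single genes at the top was less certain than their membership. Of the 415 genes with the highest H3K27me3 in each library, 311 were shared, and of the 100 highest with a model of at least 1000 bases, 68 were shared. Of the 20 highest in each library only 8 were shared. Among the 260 H3K27me3-only genes, 227 were higher in replicate 1 than in replicate 2, with a median ratio of 1.37. The 5898 genes with the highest H3K4me3 overlapped by 96.6% between its libraries.

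All 8 measured Hox genes were H3K27me3-only, against 1.82% of all genes, and remained so with any single library left out. The share of Hox genes was 50% with the H3K4me3 level at 0.25 times the even share, 62.5% with the H3K27me3 level at 3 times and 12.5% with library medians as the reference. Ubx, which specifies the posterior thorax, had 52.2 and 36.6 CPM per kb of H3K27me3, 44.4 ± 11.04 (SD, n = 2), and 4.95 and 16.7 CPM of H3K4me3. abd-A and Abd-B, the abdominal Hox genes, had 54.1 and 38.4, and 50.2 and 33.2 CPM per kb. In the Antennapedia complex the values were 51.5 and 35.5 CPM per kb for Antp, 51.6 and 37.0 for Scr, and 53.7 and 35.3 for Dfd. pb had 45.7 and 31.2, and lab had 47.4 and 29.7 CPM per kb. Means of the 8 genes spanned 38.5 to 46.3 CPM per kb. Replicate 1 was the higher library for all 8, and in each library abd-A was the highest and pb and lab were the lowest.

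Around the Hox genes the mark formed blocks. H3K4me3-marked genes lay near their ends, but 41.3% of all genes were H3K4me3-marked. In the bithorax complex, the 12 genes in order from Ubx to Abd-B were all above the H3K27me3 level in replicate 1, and 11 were H3K27me3-only. The exception was CG31275, with 49.6 and 19.6 CPM per kb. The mark went on past Abd-B over VhaM9.7-d, Actn3, Ahcy89E and CG18622, which held 66.7, 57.8, 54.6 and 44.4 CPM per kb in replicate 1. Then MESK4 had 19.9 and 24.2 CPM per kb, and its neighbor CG3678 had 10.9 and 9.67 CPM per kb with H3K4me3 of 136.1 and 87.8 CPM. One gene further, CG31274 was again H3K27me3-only, just above the level with 23.4 and 25.3 CPM per kb. On the other side modSP, next to Ubx, had 17.4 and 10.4 CPM per kb. Beyond it CG14907 and CG14906, which share 1 gene model and thus all their reads, Cctgamma (a chaperonin subunit gene), CG10324, CG10326 and nonA-l were H3K4me3-only.

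The Antennapedia complex was interrupted. Of its 25 genes from lab to Antp, 12 were H3K27me3-only, 6 were split, 6 had neither mark and 1 had H3K4me3. The break lay over the Ccp84A cuticle protein genes between lab and pb. Ccp84Ag, Ccp84Af and Ccp84Ae passed the level in replicate 1 with 25.4, 31.0 and 25.6 CPM per kb and missed it in replicate 2 with 7.52, 11.2 and 12.1. Ccp84Ad to Ccp84Aa had neither mark. Among them the non-coding gene pncr002:3R had H3K4me3 of 63.4 and 123.1 CPM, the only H3K4me3-marked start in the complex. A pair of 7SL RNA genes, 7SLRNA:CR42652 and 7SLRNA:CR32864, had 2.38 and 2.18 CPM per kb in replicate 1 in the middle of marked neighbors; the 7SL copies are near-identical, so their counts are uncertain. zen, bcd and ftz, early embryonic patterning genes of the complex, were split, with 55.8, 44.0 and 48.1 CPM per kb in replicate 1 and 21.1, 22.2 and 17.6 in replicate 2. Past Antp the mark continued over Sodh-1 (a sorbitol dehydrogenase gene), CG1979, the sperm protein genes dj and djl, and CG1988, and ended before CG1105, which had 131.7 and 195.4 CPM of H3K4me3.

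**Figure D4:**
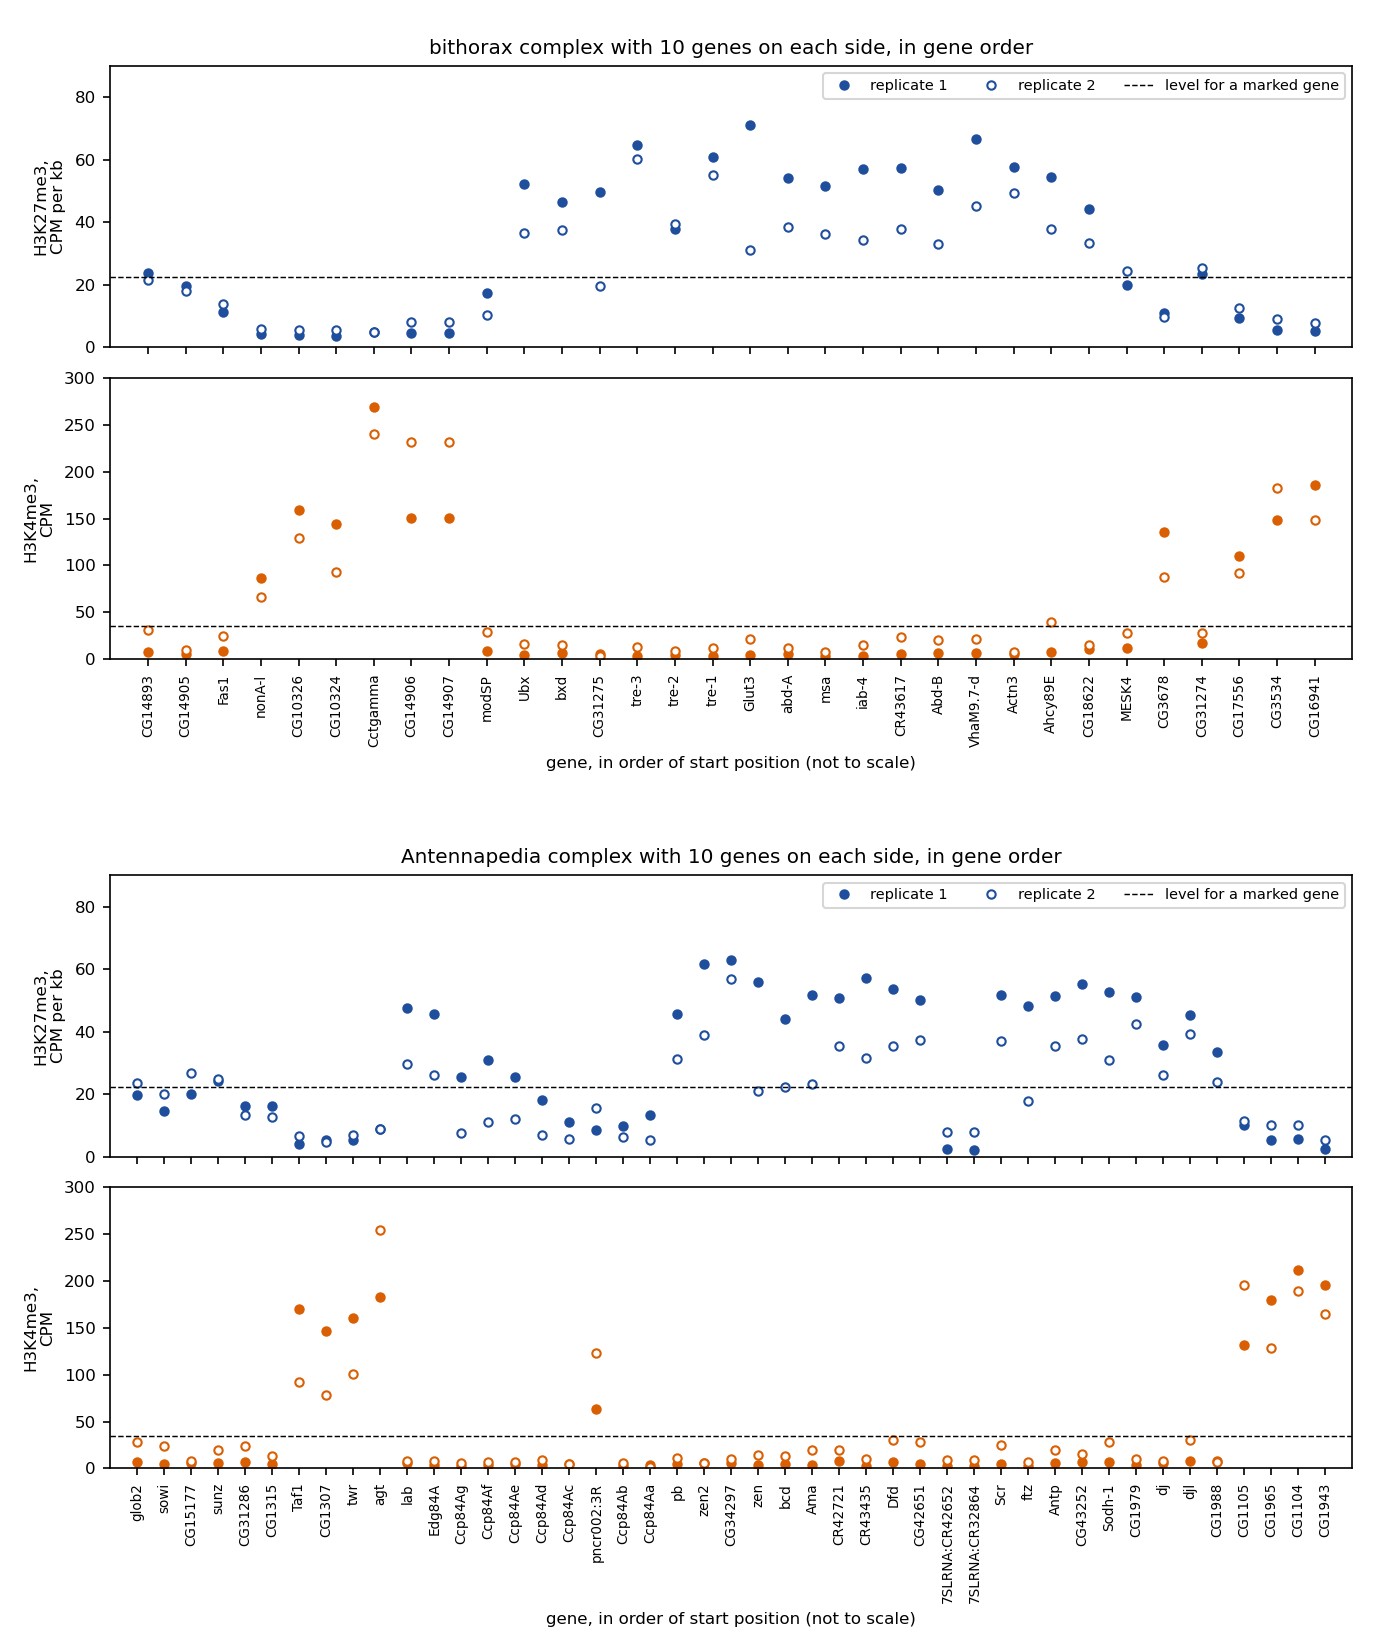
H3K27me3 (blue, CPM per kb) and H3K4me3 (orange, CPM) of each gene of the bithorax and Antennapedia complexes and 10 genes on each side, in order of start position and not to scale. Filled points are replicate 1, open points replicate 2, and dashed lines the levels for a marked gene. Most genes of both complexes lie above the H3K27me3 level, with a gap from Ccp84Ad to Ccp84Aa and at the 7SL RNA genes in both libraries and, in replicate 2 alone, values below it from Ccp84Ag to Ccp84Ae and at zen, bcd, ftz and CG31275. Inside the complexes H3K4me3 is below its level except at pncr002:3R, and outside them genes of high and of low H3K4me3 are found.

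Blocks of H3K27me3-marked genes were found beyond the Hox genes. Runs were sought on the main chromosome arms, so genes in heterochromatic sequence could not be in a run. There were 30 runs of at least 3 neighboring genes marked in both H3K27me3 libraries, and 2 of them consisted of repeat genes only. The other 28 held 141 genes with a median H3K27me3 of 39.2 CPM per kb, and none of their members was H3K4me3-marked. Runs contained 133 of the 260 H3K27me3-only genes (51.2%). Of the 57 genes next to any of the 30 runs, repeats included, 19 were H3K4me3-only, 13 had neither mark and 25 were split. Their median H3K27me3 was 16.7 CPM per kb. Of all genes, 40.4% were H3K4me3-only, 48.8% had neither mark and 8.19% were split. A run ends at the first gene not marked in both H3K27me3 libraries, so no flanking gene could be H3K27me3-marked. At an H3K27me3 level of 3 times the even share 8 runs were left, and at 1.5 times there were 72, so the number of runs depended on the level.

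The longest run outside the repeats was that of abd-A and Abd-B, with 13 genes at chr3R:12589091-12813660 and mean H3K27me3 of 38.6 to 62.5 CPM per kb. Next came 10 genes around Kr at chr2R:21016955-21137839. Kr, a gap gene that also acts early in the temporal series of embryonic neuroblasts, had 48.4 and 23.8 CPM per kb, and its neighbor CG30429 had 56.5 and 49.7. The other members were CG30430, CG43106, CG34038, Sfp60F, PebII, Peb, CG9380 and CG33680, among them seminal fluid and ejaculatory bulb protein genes. A run of 7 genes at chr2L:5379095-5467610 joined H15 and mid, paired T-box genes, with H3K27me3 of 48.0 and 29.8, and 42.4 and 22.8 CPM per kb. It also held the non-coding or little-studied genes CG42850, CR43713, CR43714, CR43715 and CR31647. Shorter runs, named after their values were seen, held other paired regulators. Examples are nub and pdm2 (POU factors), ara, caup and mirr (Iroquois homeobox genes), lbl and lbe (ladybird genes), otp and Rx (homeobox genes), and srp, GATAe and pnr (GATA factors). Other marked genes were not members of a run, such as AGO3, a Piwi-class Argonaute gene, with 37.5 and 32.6 CPM per kb over its 135008-base model. Since runs were sought on the main arms only, absence from a run does not show that a gene stands alone.

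Homeobox genes encode transcription factors that set cell and regional identities. Of 64 outside the Hox list, 28 were H3K27me3-only (43.75%, against 1.82% of all genes), 25 were split, 8 had neither mark and 3 had H3K4me3 only. Without H3K27me3 replicate 2 the H3K27me3-only genes numbered 50, and without replicate 1 again 28. At an H3K27me3 level of 3 times the even share 12.5% were H3K27me3-only. en and inv, the segment polarity pair, had 54.5 and 25.4, and 47.9 and 34.01 CPM per kb. gsb, a Pax gene, had 63.8 and 25.9 CPM per kb. ey and toy, the fly Pax6 genes on chromosome 4, had 29.7 and 25.6, and 47.1 and 29.3. Of the split genes eve had 41.7 and 8.19 CPM per kb, prd 33.4 and 14.3 CPM per kb, and tin, the heart and muscle homeobox gene, passed in the same library alone with 51.8 against 19.1. The 3 with H3K4me3 only were Optix, eya and Dll. eya, a retinal determination gene, had H3K4me3 of 58.2 and 74.4 CPM, and Dll, a limb gene, had 79.7 and 64.2 CPM. Optix had 56.3 and 54.0 CPM of H3K4me3 and the highest H3K27me3 of the 3, with 21.1 and 13.4 CPM per kb.

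A second list held 62 other regulators that are known Polycomb targets in flies. It had 18 H3K27me3-only genes (29.0%, against 1.82% of all genes), 21 split, 15 with neither mark and 8 with H3K4me3 only. Without H3K27me3 replicate 2 it had 34 H3K27me3-only genes. The H3K27me3-only genes included salr, knrl, Kr, drm, opa and bi. drm and opa, zinc finger genes, had 50.8 and 32.8, and 51.3 and 33.0 CPM per kb. With H3K4me3 only stood tll, SoxN and sna, which all act in neural precursors. tll, an orphan nuclear receptor gene, had 102.8 and 127.2 CPM, SoxN had 99.8 and 113.0 CPM, and sna had 39.3 and 54.0 CPM of H3K4me3. Of 18 segment polarity and ligand genes, 3 were H3K27me3-only (16.7%, against 1.82% of all genes), or 5 without H3K27me3 replicate 2. Another 6 had neither mark and 3 were split. The other 6 were H3K4me3-only (33.3%, against 40.4% of all genes). The H3K27me3-only ones were en and the ligand genes wg and hh, with 41.2 and 29.7, and 39.8 and 25.1 CPM per kb for the ligands. The Hedgehog receptor gene ptc, the BMP ligand gene gbb and the EGF ligand gene spi were H3K4me3-only, with 88.3 and 98.7, 116.4 and 61.8, and 226.7 and 253.5 CPM.

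Most neuroblast genes carried the opposite mark. Of 21 neuroblast identity and polarity genes, 13 were H3K4me3-only, against 40.4% of all genes, while 4 had neither mark and 4 were split. Shares of all genes were 48.8% with neither mark and 8.19% split. None was H3K27me3-marked, which in a list of 21 is near the 2.91% of all genes. Without H3K27me3 replicate 2, 2 were H3K27me3-only. dpn, the bHLH repressor that maintains neuroblasts, had H3K4me3 of 145.5 and 108.5 CPM, and wor, a Snail family gene, had 135.6 and 147.1 CPM. mira and insc, which organize asymmetric division, had 142.7 and 93.9, and 123.0 and 153.6 CPM. klu, a zinc finger gene of neuroblast self-renewal, had 123.0 and 59.7 CPM. All 5 neuroblast markers thus passed the H3K4me3 level in both libraries, with mean H3K27me3 of at most 5.78 CPM per kb. The level was passed by 41.3% of all genes, among them the neuronal marker elav and the muscle marker Mef2. Passing it therefore does not settle the identity of the cells. brat itself, the gene targeted by RNAi, had 208.9 and 277.9 CPM of H3K4me3, or 243.4 ± 48.8 (SD, n = 2), and 2.60 and 4.73 CPM per kb of H3K27me3. RNAi acts on the transcript, so this reading does not test the knockdown. numb, the Notch inhibitor gene, was split with 15.1 and 51.2 CPM.

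Of the neuroblast genes that were not H3K4me3-only, pros, grh, dlg1 and svp had neither mark, and ase, numb, zfh1 and cas were split. zfh1 and cas passed the H3K27me3 level in replicate 1 alone, with 25.1 and 27.6 CPM per kb there. ase, a marker of type I neuroblasts, had 7.75 and 43.1 CPM of H3K4me3 and 16.3 and 13.7 CPM per kb of H3K27me3, so its libraries split. pros, the differentiation gene inherited by the daughter cell, had 7.098 and 6.09 CPM of H3K4me3 and 21.6 and 13.4 CPM per kb of H3K27me3. grh, which acts late in neuroblast life, was low in both marks, with 4.02 and 4.47 CPM of H3K4me3 and 1.61 and 3.72 CPM per kb of H3K27me3. Each gene has a single window at the outer end of its model, so H3K4me3 at an inner start was not measured.

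Type II lineage genes divided between the marks. btd and Sp1, related zinc finger genes that act in type II neuroblasts, had H3K4me3 of 64.3 and 69.1, and 83.7 and 85.7 CPM, and H3K27me3 means of 2.13 and 2.68 CPM per kb. tll was also H3K4me3-only. Of the genes that act in intermediate progenitors, 4 were H3K27me3-only. opa had 51.3 and 33.0 CPM per kb, dac 36.7 and 23.3, ham 31.2 and 22.6, and ey 29.7 and 25.6. Replicate 2 of ham was just above the level. D, a Sox gene of young intermediate progenitors, was split on both marks, with H3K4me3 of 7.94 and 46.7 CPM and H3K27me3 of 31.8 and 16.1 CPM per kb. bsh, a homeobox gene, was split through its H3K27me3 of 34.1 and 12.3 CPM per kb, and slp1 had H3K4me3 in both libraries (60.7 and 67.4 CPM) and H3K27me3 in replicate 1. erm, which stabilizes progenitor identity, was H3K27me3-marked with 40.0 and 23.0 CPM per kb, and its H3K4me3 of 6.91 and 45.9 CPM passed the level in replicate 2 alone. pnt, an ETS factor gene of type II neuroblasts, had neither mark at 7.28 and 10.6 CPM and 6.25 and 7.79 CPM per kb. In all, 3 of the 13 genes were H3K4me3-only, 4 H3K27me3-only, 2 had neither mark and 4 were split. The shares of all genes were 40.4% H3K4me3-only, 1.82% H3K27me3-only, 48.8% with neither mark and 8.19% split.

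Temporal patterning genes set the order in which a neuroblast makes its progeny. Of 14, the embryonic factors Kr, pdm2 and nub were H3K27me3-only (21.4%, against 1.82% of all genes). pdm2 and nub had 44.2 and 30.7, and 43.1 and 32.4 CPM per kb. hb and cas were split, with 39.8 and 13.5, and 27.6 and 12.1 CPM per kb, and without H3K27me3 replicate 2 they brought the H3K27me3-only genes to 5. br, an ecdysone response gene, was split through its H3K4me3 of 16.0 and 36.97 CPM. chinmo, which marks early larval stages, was the only one with H3K4me3 in both libraries (87.8 and 104.4 CPM). The other 7 temporal genes had neither mark (50%, against 48.8% of all genes). Of 15 proneural genes 9 had neither mark, against 48.8% of all genes. Fer1 and Fer3, bHLH genes, were H3K27me3-only (1.82% of all genes were), with 46.4 and 25.2, and 53.7 and 23.5 CPM per kb.

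Notch signalling keeps neuroblasts in their state. The receptor gene N had H3K4me3 of 89.6 and 129.2 CPM, its ligand gene Dl 116.7 and 160.9 CPM, and the transcription factor gene Su(H) 201.9 and 245.0 CPM. The other ligand gene, Ser, was split, with H3K4me3 of 5.51 and 11.8 CPM and H3K27me3 of 35.0 and 20.8 CPM per kb. Of the 28 pathway genes, 11 were H3K4me3-only (39.3%, near the 40.4% of all genes) and none was H3K27me3-only, while 9 were split and 8 had neither mark. Without H3K27me3 replicate 2, 7 were H3K27me3-only. Genes of the Enhancer of split complex made up most of the split ones. HLHm5 had 36.4 and 9.94 CPM per kb of H3K27me3, HLHm7 24.0 and 8.34, and HLHm3 27.5 and 10.7, each above the level in replicate 1 and near the even share in replicate 2. HLHmgamma had 45.1 CPM of H3K4me3 in replicate 2 and 18.9 CPM in replicate 1.

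**Figure D5:**
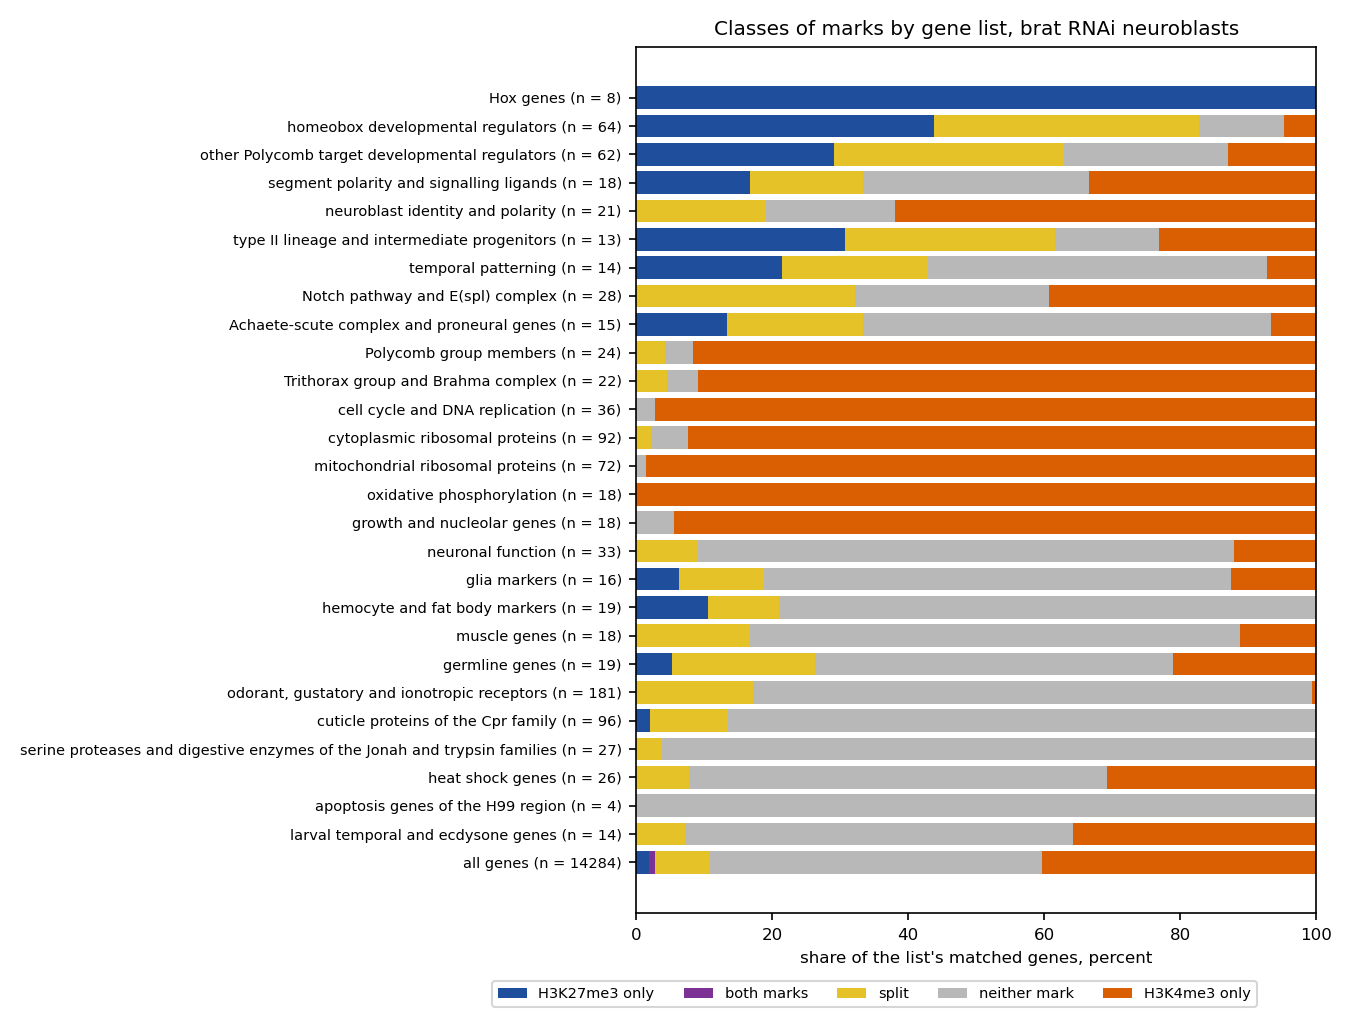
Share of each gene list (percent of its matched genes, with the number of genes in the label) that was H3K27me3-only, carried both marks, was split between libraries, had neither mark or was H3K4me3-only. The bottom bar is all 14284 genes. The 8 Hox genes are fully blue, lists of growth, division and chromatin genes are nearly all orange, and grey makes up over 80% of the receptor, cuticle protein and protease lists and a smaller part of the neuronal, muscle, glial and germline lists.

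The chromatin regulators themselves were H3K4me3-marked. Of 24 Polycomb group members, 22 were H3K4me3-only, and 20 of 22 Trithorax group and Brahma complex genes, against 40.4% of all genes. Pc, the chromodomain subunit that binds H3K27me3, had 287.4 and 240.5 CPM, and E(z), the methyltransferase that makes it, had 103.8 and 106.0 CPM. trx and brm had 184.7 and 182.8, and 185.5 and 125.1 CPM. Su(z)2 was the Polycomb gene with the most H3K27me3, at 35.1 and 20.3 CPM per kb, and its H3K4me3 of 11.6 and 43.9 CPM was also split. Its homolog and neighbor Psc had 10.5 and 10.2 CPM per kb and 35.7 and 49.2 CPM of H3K4me3, just inside the level. jing had neither mark.

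Genes of growth and division were marked almost without exception. H3K4me3 alone was found at 35 of 36 cell cycle and replication genes, 85 of 92 cytoplasmic and 71 of 72 mitochondrial ribosomal protein genes, 18 of 18 oxidative phosphorylation genes and 17 of 18 growth and nucleolar genes. Of all genes, 40.4% were H3K4me3-only. No gene of these lists was H3K27me3-marked, against 2.91% of all genes. stg, the Cdc25 phosphatase gene, was the cell cycle gene below the level, with 16.997 and 31.7 CPM. dm, the fly Myc gene, had 116.6 and 84.9 CPM. RpL37b and RpS19b, of the ribosomal list, were split, RpL37b through H3K27me3 (22.4 and 14.98 CPM per kb) and RpS19b through H3K4me3 (32.7 and 55.3 CPM). The highest H3K4me3 values of all belonged to Yeti on 2RHet, with 463.0 and 438.0 CPM, and to wts, the Hippo pathway kinase gene, with 327.0 and 533.9 CPM. CG17490 had 374.7 and 418.1 CPM, and the other 7 of the 10 highest were copies of His4.

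Genes known from other cell types were compared with the 48.8% of all genes that had neither mark. Of 33 genes of neuronal function, 26 had neither and 4 were H3K4me3-only, namely elav, Syx1A, unc-13 and Nrx-1. elav, a neuronal RNA-binding protein gene, had 111.6 and 155.6 CPM, while the neuronal markers n-syb, brp, Syt1 and futsch stayed between 1.96 and 34.5 CPM. Of 16 glial genes 11 had neither mark and 2 were H3K4me3-only, namely loco with 212.0 and 97.1 CPM and Tret1-1 with 136.6 and 89.8 CPM. Neither is among the 5 defining glial markers, of which none was H3K4me3-only. repo had 4.95 and 12.2 CPM of H3K4me3, and gcm, the glial determinant gene, was H3K27me3-only with 50.4 and 23.2 CPM per kb. The hemocyte and fat body markers had at most 16.3 CPM of H3K4me3, with srp, their GATA factor gene, H3K27me3-only at 43.9 and 27.7 CPM per kb. Of the 4 muscle markers, Mef2, a transcription factor gene that is also used in neurons, had H3K4me3 of 106.7 and 146.7 CPM, and Mhc, Act57B and up were below the level. In the longer list of 18 muscle genes 13 had neither mark, and how, an RNA-binding protein gene, was the other H3K4me3-only gene with 132.1 and 94.3 CPM. Of the 4 germline markers bam alone passed the H3K4me3 level, in replicate 1 only, with 35.4 and 24.0 CPM. Of the longer list of 19 germline genes 10 had neither mark, near the share of all genes. There tud, gcl, stwl and vret were H3K4me3-only, with 148.9 and 155.6, 161.1 and 215.3, 58.5 and 69.9, and 113.1 and 86.9 CPM.

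Summed over its markers, H3K4me3 was 669.8 and 562.7 CPM for the 5 neuroblast genes. For 4 type II lineage genes it was 162.2 and 211.3 CPM, and for ase of type I neuroblasts 7.75 and 43.1 CPM. It was 148.2 and 237.3 CPM for 5 neuronal genes, mostly elav, and 123.6 and 195.4 CPM for 4 muscle genes, mostly Mef2. The sums were 25.6 and 56.9 CPM for 5 glial genes, 27.9 and 43.5 CPM for 5 hemocyte and fat body genes and 64.3 and 64.6 CPM for 4 germline genes. None of the marker starts was at 0 reads, and whether other cell types contributed to any value was not tested.

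Large families of sensory, cuticle and digestive genes were mostly below both levels, against 48.8% of all genes. Among 181 odorant, gustatory and ionotropic receptor genes 149 had neither, and Gr61a was the only one marked in both H3K4me3 libraries, with 56.8 and 76.0 CPM. Without H3K4me3 replicate 1, 13 were H3K4me3-only, and without H3K27me3 replicate 1, 13 were H3K27me3-only. Of 96 Cpr cuticle protein genes 83 had neither. Another 2 were H3K27me3-only (2.08%, near the 1.82% of all genes), or 9 without H3K27me3 replicate 2. Neither mark was found at 26 of 27 Jonah and trypsin genes and all 4 apoptosis genes of the H99 region. Medians of H3K27me3 in the receptor, Cpr, protease and H99 lists were 15.8, 12.2, 12.7 and 11.8 CPM per kb. They lay between the 7.71 CPM per kb of all genes and the level of a marked gene. The heat shock genes were different. Of 26, 16 had neither mark and 8 were H3K4me3-only (30.8%, against 40.4% of all genes). The median H3K27me3 of the 26 was only 2.40 CPM per kb. Hsp70Aa, a stress-inducible chaperone gene, had 1.04 and 1.70 CPM per kb of H3K27me3 and 16.6 and 30.9 CPM of H3K4me3, so it was low in both marks. The Hsp70 copies are near-identical and their counts are uncertain. Hsp68 and Hsp23 read alike, with 0.772 and 1.98, and 1.35 and 2.09 CPM per kb.

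Genes with both marks were nearly all multi-copy. The histone gene repeats at chr2L:21417078-21541620 held 111 histone genes and 4 snmRNA:430 genes, and all 115 had both marks. Median H3K4me3 was 383.7 CPM for 22 His4 copies, 319.1 for 23 His3, 233.0 for 20 His2A, 223.7 for 23 His1 and 151.4 for 23 His2B. Median H3K27me3 was 47.4 CPM per kb for His2A, 48.4 for His1, 48.8 for His2B, 52.3 for His3 and 54.7 for His4. The replication-dependent histone genes are transcribed in dividing cells from a tandem array of near-identical units, so reads cannot be assigned to one copy, and a collapsed or unequal copy number in the build acts on both marks. The levels of single copies are therefore uncertain, and so is the reading of both marks, for which no input value was used.

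The Stellate repeats were the other multi-copy set. Stellate genes are X-linked copies that are silenced in the male germline by Piwi-interacting RNAs. All 13 were H3K27me3-marked, with 57.6 to 294.5 CPM per kb in replicate 1 and 57.8 to 239.5 in replicate 2, and 5 also passed the H3K4me3 level in both libraries. Their H3K4me3 ran from 18.6 to 97.8 CPM in replicate 1 and from 52.8 to 215.3 CPM in replicate 2. As for the histone genes, the copies share reads.

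Only 6 genes outside these repeats had both marks, 4 of them with a model of at least 1000 bases. CG12717 on X had 164.3 and 192.2 CPM of H3K4me3 and 31.4 and 29.1 CPM per kb of H3K27me3. CG32638, also on X, had 72.5 and 141.0 CPM and 33.1 and 31.9 CPM per kb. Its start lay 164 bases from that of snmRNA:204, and their windows overlap. Sirt6, a sirtuin deacetylase gene on 3R, had 150.3 and 167.0 CPM and 22.7 and 24.9 CPM per kb, barely inside the H3K27me3 level. Its start lay 372 bases from that of pont, another H3K4me3-marked gene. Parp, the poly(ADP-ribose) polymerase gene in 3RHet, had 191.7 and 72.3 CPM and 22.5 and 23.9 CPM per kb over a 91611-base model, so its mark over the model need not lie near its start. The remaining pair, CG32708 and CG10993, had models of 930 and 771 bases and are named after their values were seen. CG32708 had 127.5 and 121.1 CPM and 40.5 and 26.99 CPM per kb, and CG10993 had 36.0 and 104.4 CPM and 132.9 and 116.9 CPM per kb.

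Other genes came close to both marks. In 29 genes, Stellate copies and erm among them, H3K27me3 was present in both libraries and H3K4me3 in 1 of 2. In another 8 genes H3K4me3 was present in both libraries and H3K27me3 in 1 of 2. They were Rfx, CG3894, slp2, CG2543, CG5500, slp1, tko and Axn, listed after their values were seen. slp1 and slp2, forkhead genes of the temporal series in optic lobe neuroblasts, lie next to each other. slp1 had 60.7 and 67.4 CPM of H3K4me3 and 30.6 and 11.4 CPM per kb of H3K27me3. slp2 had 60.3 and 47.1 CPM and 31.6 and 15.02 CPM per kb. Rfx had the highest mean H3K27me3 of the 8, at 31.2 and 17.3 CPM per kb.

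Splits between libraries went mainly 1 way in each mark. H3K4me3 split 673 genes, and 606 of them passed in replicate 2 alone. H3K27me3 split 521 genes, and 385 passed in replicate 1 alone. Only 24 genes were split on both. The H3K4me3 replicate with the most extra genes was the smaller library and the one with the higher median, and the H3K27me3 replicate with the most extra genes was the one with the wider range. Whether depth or background set these splits was not tested. Just inside the H3K4me3 level by mean were Patsas, Zw and Ipk1 (35.1 to 35.6 CPM), and just outside it were Sep4, Takl2 and Ir76a (34.9 CPM each). For H3K27me3 CG9925, LysB and CG34295 were just inside (22.4 CPM per kb each) and CG2543, CG33771 and Pp1-13C just outside (22.3 CPM per kb each). All 12 were split.

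By chromosome arm H3K27me3-only genes numbered 97 on 3R (2.80% of its genes), 70 on 2L (2.57%), 36 on 3L (1.299%), 32 on 2R (1.13%), 14 on X (0.631%) and 5 of 85 on chromosome 4 (5.88%). The other 6 lay in heterochromatic sequence. RefSeq annotates 217 of them as protein-coding and 26 as long non-coding RNA genes. Another H3K4me3-marked start lay within 1000 bases of 4 of the 260 (1.54%), compared with 55.4% of H3K4me3-marked genes and 5.19% of genes below the H3K4me3 level. Their median model of 1968 bases was close to the 2029 bases of all genes, with 84 models under 1000 bases and 72 of at least 10 kb. The share of H3K27me3-marked genes was 9.58% among models up to 500 bases, or 5.49% without the repeat genes. It was 1.16% between 2000 and 4000 and 4.93% between 16000 and 32000 bases. A short model rests on fewer reads than a long one at the same value per kb. With 150 bases added to each model length, an alternative chosen after seeing the data, 217 genes (1.52%) were H3K27me3-only. The cause of the higher share in short models was not tested.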

How the data were processed

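Counts were deposited by the authors as whole numbers of reads per gene and library, without normalization, 1 line per gene. The submitters' processing notes name Bowtie2 2.2.4, deepTools 2.5.0.1, bedtools 2.25.0 and build dm3. Counting settings, strand and the handling of duplicate and multi-mapping reads are not given in the sources used here. The 14 input samples and 12 count libraries of other groups were not analysed here. From the counts, CPM of library total, CPM per kb of gene model, even shares and classes were computed with Python 3.11.15, pandas 2.3.3, numpy 2.4.6 and scipy 1.17.1, and figures with matplotlib 3.10.9. edgeR 4.0.16 and DESeq2 1.42.0 in R 4.3.3 gave alternative library scalings. There is 1 group, so nothing was tested between groups and no p-value is given. The class functions were tested on simulated data.

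Genes were named by a rule: brat and numb, the 20 highest H3K27me3 genes (marked, at least 1000 bases), the 10 highest H3K4me3 genes, up to 15 genes with both marks of at least 1000 bases, the 5 longest runs, up to 6 and 3 members per class of each list, and the 3 genes on each side of a level. Other names, flanking genes of the Hox complexes among them, were chosen after their values were seen. Members, lists and levels were chosen with earlier results of these data known. Symbols of 14080 of 14284 genes matched RefSeq (Release 6), used for synonyms and gene types only. Coordinates come from the count files. Gene models overlap another model in 5382 genes and start windows another window in 772, so neighbors can share reads. The libraries of a mark differed by more than sampling noise (chi-square per degree of freedom of 36.5 for H3K4me3 and 65.4 for H3K27me3). Technical differences can give such a spread too, so it does not show that the libraries came from separate animals. A planned comparison of promoter and protein sequence was not run.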

Additional observations from a re-analysis of the deposited data

How the results depend on the processing

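No paired analysis was possible because no result came from a test. Replicate 2 of both marks carried the same SBa code (68) and shared an input. Replicate 1 carried code 27 for H3K4me3 and 26 for H3K27me3. What the codes mean is not given in the labels, so marks set side by side by replicate number need not be matched preparations. H3K4me3-only genes stayed within 1.5 times of 40.4% (34.7 to 55.3%) under all 19 alternatives. With the H3K4me3 level at 0.25 times the even share, 1.18% of genes were H3K27me3-only, 31.7% had neither mark and 23.1% were split. With the H3K27me3 level at 1.5 times the even share, 5.54% were H3K27me3-only and 17.1% split, with 72 runs. At 3 times, 0.511% were H3K27me3-only, with 8 runs. With the library median as the reference, 1.20% were H3K27me3-only, 5.47% had both marks, 5.40% had neither and 32.6% were split, and 10 of 27 gene lists kept their most frequent class. With the mean of the libraries as the call, 3.33% were H3K27me3-only and 0% split. Genes with both marks came to 0.0358% among models of at least 1000 bases and, in an alternative chosen after seeing the data, to 0.0424% without the repeats. Leaving out libraries in turn gave 1.82 to 4.66% for H3K27me3-only and 0 to 4.71% for split genes, the latter since fewer libraries can disagree. For the other moved values the cause was not tested.

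At its level H3K4me3 rested on 86.2 reads in the smallest library, and values well below it on few. The absence of input correction, the undefined treatment of multi-mapping reads and 2 libraries per mark limit the values, and no sequence features were described.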
